A study of Mus musculus with 19 samples.

Results

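Maturation of the knockout heart was described from 3 RNA-seq libraries of PDK1 conditional-knockout hearts (cKO below, labelled PDK1 CKO) at postnatal day 21 (P21) and 3 at postnatal day 7 (P7). These 6 libraries, chosen by their genotype and age labels and not by any measured value, are part of a series of 19 mouse heart libraries, and 13645 of the 56066 genes in the deposited table reached 1 TPM, a length-corrected share of all transcripts, in 3 or more of the 6. Wild-type (WT) hearts of the same ages, 5 libraries at P7 and 4 at P21, served as the reference for what maturation does when PDK1 is present. The titles of P21 WT libraries 2 and 3 carry B6, a mark that may name a strain, and no other P7 or P21 title does. The labels do not give the Cre driver, the strain of the cKO mice, their sex, or whether each library is a separate animal, so all p-values below measure the spread between libraries, which may in part be technical. The 6 cKO titles carry the numbers 69, 75 and 82 at P7 and 55, 59 and 64 at P21, and values for single libraries are given in that order throughout. Where every WT library is given, the order is replicates 1, 3, 72, 76 and 77 at P7 and 2, 3, 57 and 60 at P21.

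In the weeks after birth the mouse cardiomyocyte leaves the cell cycle, exchanges fetal for adult sarcomere proteins, expands and matures its mitochondria and shifts its fuel from glucose and lactate towards fatty acids. The name PDK1 is used for 3-phosphoinositide-dependent protein kinase 1, encoded by Pdpk1, which activates AKT and related kinases below the insulin and IGF receptors. It is also used for a pyruvate dehydrogenase kinase, encoded by Pdk1, which inhibits pyruvate dehydrogenase in mitochondria. The labels do not say which is meant, so both genes were examined.

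Expression is given as scaled TPM: the deposited TPM divided by a library factor that sets the median ratio of genes to 1. Changes are differences of log2(scaled TPM + 1) between P21 and P7, printed ± their standard error, and they understate the change of genes with low values. All adjusted p-values come from limma with Benjamini-Hochberg adjustment over the 13645 genes, and a gene is said to have risen or fallen when its adjusted p was under 0.05. The difference between genotypes is the change in cKO minus the change in WT, tested in the same fit, and the cKO and WT changes share no library. TPM keep no record of read depth, so the precision of a single value is unknown. The library factors were 1.09 to 1.17 at P7 and 0.895 to 0.952 at P21 in cKO. Xist, the RNA of the inactive X chromosome, was 42.6 to 52.7 TPM in 2 cKO libraries of each age, and the Y-linked Ddx3y was 16.5 and 20.3 TPM in the third (82 at P7 and 55 at P21). The mitochondrially encoded genes held 17.4% to 19.3% of TPM at P7 and 20.3% to 20.4% at P21, and 13000 to 13582 genes reached 1 TPM. A further P21 library, number 63, has the genotype label PDK1 CKO but a title without the KO mark, and it was kept out of every group.

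Most of what changed between P7 and P21 in WT hearts also changed in the knockout. In cKO hearts 6196 genes (45.4% of those tested) passed the test, 2980 higher (21.8%) and 3216 lower (23.6%) at P21, and 567 of the risen and 576 of the fallen genes changed at least 2-fold. In WT hearts 7987 genes (58.5%) passed, and 5187 of these moved in the same direction in cKO, which was 64.9% of the WT calls and 83.7% of the cKO calls. Opposite calls were made for 55 genes, of which 37 rose in WT and fell in cKO. Across the 1370 genes that changed at least 2-fold in WT, the median ratio of the cKO change to the WT change was 0.832, and across the 1143 genes that changed at least 2-fold in cKO it was 0.985. Each set was chosen by one of the changes in its ratio. The test of the difference itself found 617 genes (4.52%), 219 with a higher change in cKO (1.6%) and 398 with a lower one (2.92%). Of the 617, 208 moved in the same direction with a smaller change in cKO, 55 in the same direction with a larger change, 53 in opposite directions, 193 passed in WT alone and 108 in cKO alone.

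**Figure D1:**
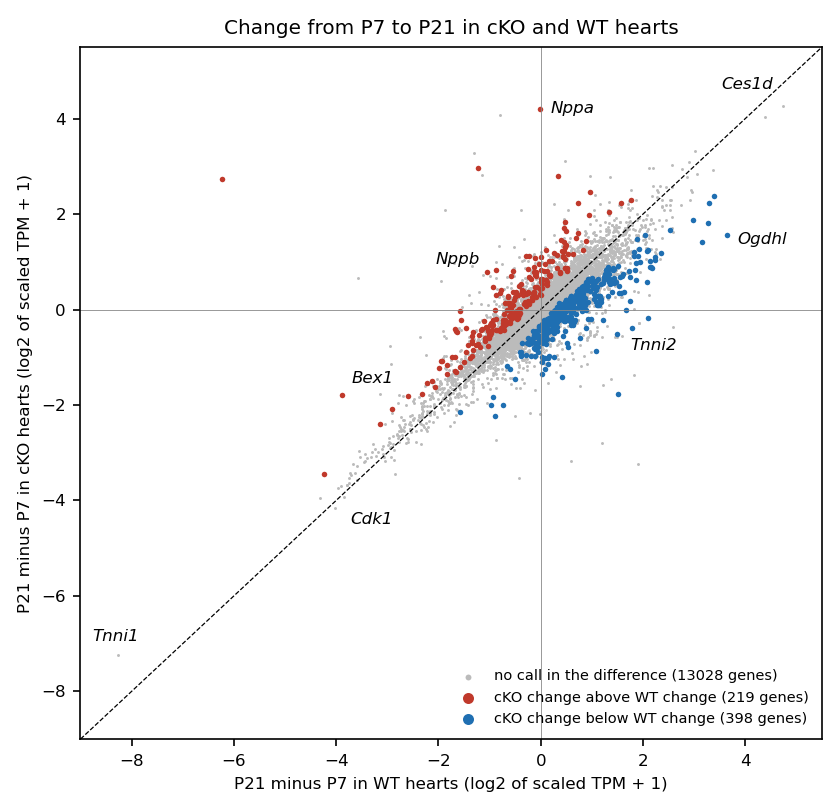
Change from P7 to P21 in WT hearts (x axis) against that in cKO hearts (y axis), both as log2 of scaled TPM + 1, for the 13645 genes tested. The dashed line marks equal change, the 219 red and 398 blue genes passed the test of the difference, and Tnni1, Cdk1 and Ces1d lie near the line while Nppa, Bex1 and Ogdhl lie away from it.

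These counts depend on the choices made to different degrees. Leaving out 1 library at a time gave 5355 to 6444 calls within cKO, and at least 84.2% of the 6196 were called again each time in the same direction. The 617 difference calls became 219 without P7 cKO library 69, 277 without P7 cKO library 82, 333 and 381 without P21 cKO libraries 59 and 64, 375, 393 and 400 without P7 WT libraries 1, 76 and 77, 405 and 343 without P21 WT libraries 2 and 3, and 1109 without P21 WT library 60. The 5 other omissions gave 446 to 829. Placing library 63 in P21 cKO, as its genotype label reads, left 0 difference calls (in limma 1865 genes then had an unadjusted p under 0.05, against 2684 with the library left out), and placing it in P21 WT gave 543. Levels of single genes in library 63 are set beside those of the P21 groups in the last paragraph. Among WT libraries, 4 have letter-code titles, with B6 in those of P21 libraries 2 and 3. The other 5, like all cKO libraries, have plain numbers. The model carried a term for this title style, and within the 11 plain-number libraries alone 81 genes passed the difference, 72 of them among the 617. Without scaling, the median gene changed by -0.26 in cKO and -0.49 in WT, the cKO calls were 1440 higher and 5956 lower, and 93.4% of difference calls were higher in cKO against 35.5% with scaling, so every direction below is relative to the median gene.

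Cell cycle genes fell in the knockout hearts. All 29 tested of 31 listed DNA replication genes and all 32 mitosis and cytokinesis genes were lower at P21, with median changes of -1.68 and -2.85 against -1.69 and -2.97 in WT and -0.02 over all genes tested in cKO. Of these, 3 replication and 10 mitosis genes had no P21 cKO library at 1 TPM and entered only through P7, and the other 26 and 22 fell as well. None of them passed the test of the difference, by which 4.52% of all genes were called. Cdk1, the kinase that drives entry into mitosis (ENSMUSG00000019942, chr10:69335146-69352938), measured 62.8, 69.5 and 66.5 scaled TPM in the P7 cKO libraries and 1.88, 3.74 and 2.96 in the P21 cKO libraries. The groups were far apart, with a change of -4.15 ± 0.21 (adjusted p = 1.14e-08) in cKO and -4.03 ± 0.17 in WT. Rrm2, the small subunit of the reductase that makes deoxyribonucleotides, fell from 36.96, 34.4 and 37.9 to 1.21, 1.79 and 1.39, a change of -3.93 ± 0.12 (adjusted p = 5.17e-10). Among mitotic genes Top2a, which untangles chromosomes, went from 41.2, 48.5 and 38.9 to 1.27, 2.75 and 3.74, and Cdc20, an activator of the anaphase-promoting complex, from 33.9, 30.5 and 25.1 to 1.05, 1.47 and 1.98. The changes were -3.67 ± 0.22 for Top2a and -3.63 ± 0.15 for Cdc20 (adjusted p = 4.51e-08 and 2.77e-09). In each of these genes the 3 P21 libraries lay below the 3 P7 libraries, and groups without overlap were found for 55.8% of all genes tested. Fewer cells of a dividing type and less of these RNAs per cell cannot be told apart in bulk tissue.

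The promoters of Cdk1, Top2a and Cdc20 are shown because every tested gene of their list fell. Each is the RefSeq window (GRCm38.p6) from 250 bases before to 50 after the gene's start, on the gene's own strand, for Cdk1 chr10:69352863-69353162, for Top2a chr11:99024140-99024439 and for Cdc20 chr4:118437294-118437593, all on the minus strand. Capitals mark the letters TTTGAA on either strand, the core of the cell cycle gene homology region found in late cell cycle promoters.
Cdk1: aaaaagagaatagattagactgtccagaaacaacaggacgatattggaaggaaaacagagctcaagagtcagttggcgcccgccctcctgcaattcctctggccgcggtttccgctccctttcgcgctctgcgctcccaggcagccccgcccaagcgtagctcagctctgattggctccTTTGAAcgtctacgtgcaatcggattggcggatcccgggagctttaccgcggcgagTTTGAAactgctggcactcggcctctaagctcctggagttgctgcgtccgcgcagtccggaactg
Top2a: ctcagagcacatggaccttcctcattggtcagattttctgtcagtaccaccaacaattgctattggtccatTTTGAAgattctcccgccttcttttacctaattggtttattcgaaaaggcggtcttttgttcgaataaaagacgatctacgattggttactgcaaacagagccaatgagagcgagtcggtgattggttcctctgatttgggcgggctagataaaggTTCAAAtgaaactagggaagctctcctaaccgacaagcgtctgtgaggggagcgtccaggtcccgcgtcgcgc
Cdc20: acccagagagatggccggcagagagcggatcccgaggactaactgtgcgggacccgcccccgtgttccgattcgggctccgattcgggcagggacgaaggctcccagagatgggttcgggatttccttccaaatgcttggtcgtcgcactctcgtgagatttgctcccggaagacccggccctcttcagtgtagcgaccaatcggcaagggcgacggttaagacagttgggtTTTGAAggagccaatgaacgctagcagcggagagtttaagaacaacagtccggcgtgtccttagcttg
TTTGAA occurred in 21 of 28 windows (75%) of the mitosis and cytokinesis genes, in 4 of 28 (14.3%) of the DNA replication genes, and in 12.1% of the windows of all genes tested. The matches describe the letters in these windows and do not show that any factor is bound there.

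Of 18 tested of 20 listed regulators of cell cycle exit, 4 rose and 8 fell in cKO, where 21.8% of all genes tested rose and 23.6% fell, with a median of -0.02 against -0.19 in WT. E2f1, the transcription factor that switches on replication genes, fell from 8.04, 7.51 and 8.71 to 0.626, 1.18 and 1.198 scaled TPM (-2.2 ± 0.11, adjusted p = 1.45e-08), and Rbl1, the pocket protein p107, fell by 1.52 ± 0.11. The list held genes of both directions of difference. Ccng1, a p53 target, rose in cKO from 114, 105 and 109 to 161, 155 and 165, less than in WT (difference -0.67 ± 0.12, adjusted p = 0.00917). Ccnd2, a D-type cyclin, fell from 42.2, 44.8 and 45.5 to 40.8, 30.9 and 34.1, also less than in WT (difference 0.62 ± 0.11, adjusted p = 0.012).

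The switch from fetal to adult troponin I was seen in the knockout. Tnni1, the slow skeletal troponin I of the fetal heart (ENSMUSG00000026418, chr1:135779434-135810989), measured 734, 804 and 871 scaled TPM at P7 and 2.51, 6.08 and 5.03 at P21 in cKO, a change of -7.24 ± 0.29 (adjusted p = 2.63e-09) beside -8.27 ± 0.24 in WT, where P21 libraries held 0.668 to 3.06. Its adult partner Tnni3, cardiac troponin I, rose from 4032, 3677 and 4025 to 6079, 6679.8 and 6826 (0.74 ± 0.08, adjusted p = 1.17e-05), with 1.1 ± 0.07 in WT. Neither passed the test of the difference (adjusted p = 0.143 for Tnni1 and 0.0763 for Tnni3).

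Of 21 listed sarcomere isoform genes, 19 were tested, 6 rose and 5 fell in cKO, where 21.8% of all genes tested rose and 23.6% fell. The median was 0.17 against 0.37 in WT, and without scaling 3 rose and 9 fell. The other fallen members were Tpm2, the beta tropomyosin (-1.26), Myh7b (-0.80), Tnnt1, the slow skeletal troponin T (-0.72), and Tnni2, the fast skeletal troponin I. The adult myosin heavy chain Myh6 held 7746, 6783 and 7476 at P7 and 9994, 9382 and 8959.6 at P21 and rose by 0.37 ± 0.10 (adjusted p = 0.00954). Myh7, the fetal myosin heavy chain, held 3988, 3553 and 3886 and 5258, 4871 and 4877 and rose by 0.39 ± 0.10 (adjusted p = 0.00494). Neither myosin call was kept without scaling, and both changes turned below 0 under quantile normalization, to -0.11 for Myh6 and -0.16 for Myh7. Acta1, the skeletal actin gene, rose from 119, 115 and 159.9 to 358, 180.5 and 262 (0.98 ± 0.31, adjusted p = 0.021), and its close similarity to Actc1 makes the split of reads between these actins uncertain. The call for Acta1 was lost without scaling and without any 1 of cKO libraries 69, 75, 55 and 64.

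The atrial light chains Myl4 and Myl7 varied within each age. Myl7 measured 29.5, 216 and 2.33 at P7 and 19.8, 58.4 and 143 at P21 in cKO, so the groups overlapped and the change of 1.01 ± 1.15 did not pass (adjusted p = 0.503). The summed level of 10 tested atrial markers was 302.2 to 614.7 scaled TPM at P7 and 391.9 to 586.7 at P21 in cKO. The part of atrial tissue in the results below was not tested.

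The fast skeletal troponin I gene rose in WT and not in cKO. Tnni2 stood at 2.598, 2.65 and 2.09 at P7 and 0.816, 2.02 and 1.58 at P21 in cKO, a change of -0.51 ± 0.19 (adjusted p = 0.0404), while in WT it held 2.0997 to 3.72 at P7 and 8.84 to 10.8 at P21 and rose by 1.5 ± 0.15. The difference was -2.01 ± 0.24 (adjusted p = 0.00161). The change within cKO lies at low TPM and lost its call while keeping its sign in 11 of 27 alternatives. Among them were the 6 cKO libraries alone, the plain-number titles alone and the omission of any 1 of cKO libraries 69, 75, 55 and 64 or P7 WT 72. With library 63 placed in P21 cKO the change was 0.08, also without a call. Myl1, the fast skeletal essential light chain, held 11.2, 19.004 and 8.16 and 10.6, 13.1 and 18.5 in cKO, overlapping groups without a call (0.17 ± 0.27, adjusted p = 0.636).

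Structural genes of the Z-disc and M-band rose in the knockout. Of 22 tested, 15 rose and 1 fell in cKO, median 0.48 against 0.60 in WT, and 10 rose and 3 fell without scaling. Cryab, a small heat shock protein of the Z-disc, rose from 655, 659.9 and 624 to 1403, 1608 and 1758 scaled TPM (1.29 ± 0.08, adjusted p = 4.51e-08). Myoz2, a calcineurin-binding Z-disc protein, rose from 659, 542 and 638 to 1477, 1228 and 1205 (1.09 ± 0.11, adjusted p = 3.58e-06), and Xirp2, which binds actin at the intercalated disc, by 1.44 ± 0.19. In each the P21 libraries lay above all P7 libraries, and groups without overlap were found for 55.8% of all genes tested. Tcap, telethonin, which caps titin at the Z-disc, rose from 320.03, 250.4 and 311 to 753, 642 and 513, by 1.1 ± 0.15, which was less than the 2.23 ± 0.13 of WT (difference -1.12 ± 0.20, adjusted p = 0.00974). The intercalated disc list, with 15 tested, had 5 members higher and 4 lower, where 21.8% of all genes tested rose and 23.6% fell. Dsp, desmoplakin, rose by 0.79 ± 0.08, and Pkp2, the plakophilin that anchors it, rose from 63.5, 65.03 and 68.5 to 95.3, 89.1 and 86.02 (0.45 ± 0.06, not called without scaling) where the WT change was 0.02 ± 0.05 (difference 0.43 ± 0.08, adjusted p = 0.012).

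**Figure D2:**
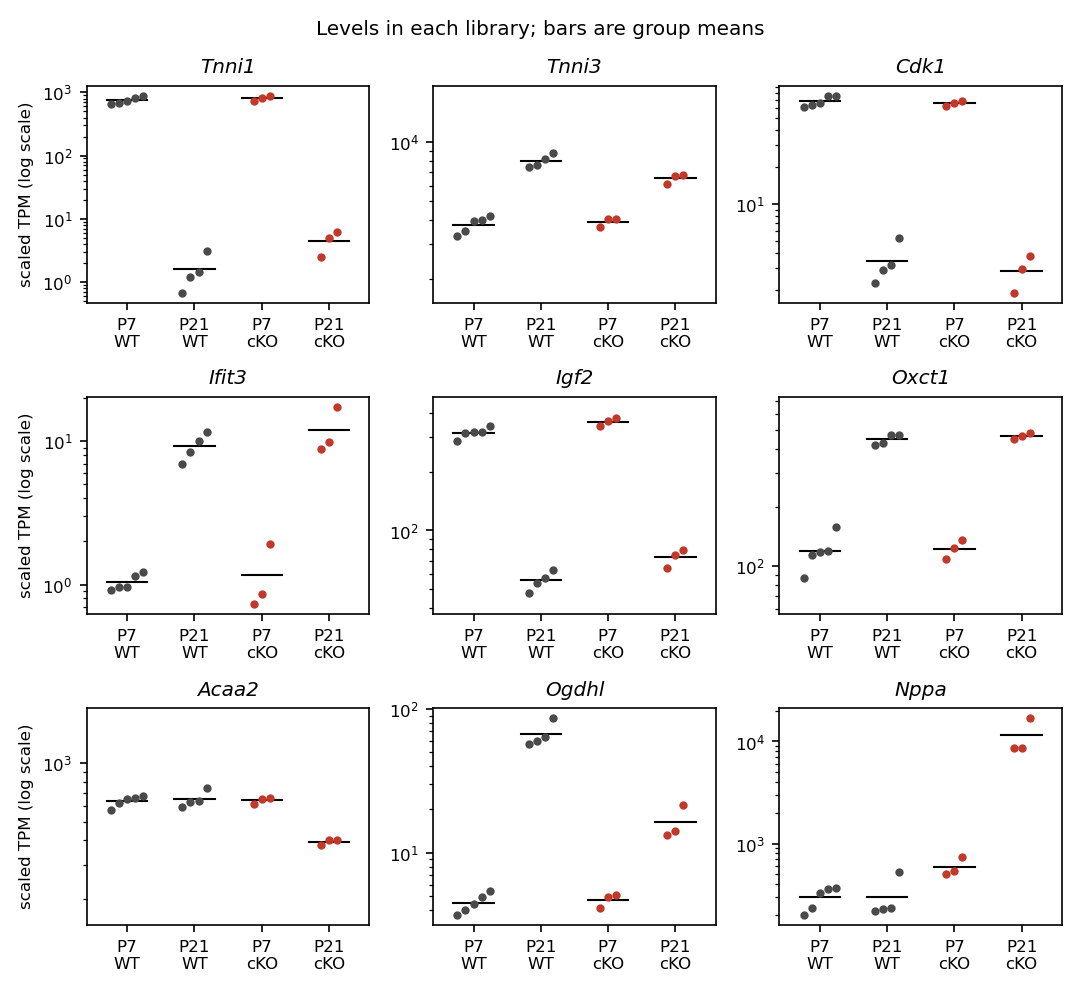
Scaled TPM (log y axis) of 9 genes in each P7 and P21 library, grey for WT and red for cKO, with bars at the group means. Tnni1, Cdk1 and Igf2 fall and Tnni3, Ifit3 and Oxct1 rise in both genotypes, Acaa2 falls and Nppa rises in cKO, and Ogdhl rises in both but less in cKO.

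Interferon genes rose in the knockout. All 25 tested of 27 listed interferon and antigen presentation genes rose in cKO, with a median change of 1.22 against 1.15 in WT, and all 25 also rose without scaling. Of these, 3 (Ifit1, Oas1a and Nlrc5) had no P7 cKO library at 1 TPM and so entered only through P21, and the other 22 rose as well. Ifit3, an interferon-induced protein that limits viral translation, measured 0.86, 0.729 and 1.904 scaled TPM at P7 and 8.86, 17.4 and 9.89 at P21 (2.58 ± 0.23, adjusted p = 1.54e-06), although reads could be shared with its near copy Ifit3b. Ifit1 rose from 0.269, 0.343 and 0.714 to 2.94, 4.89 and 3.0004 and Isg15, a ubiquitin-like modifier, from 3.64, 3.53 and 3.98 to 13.1, 17.9 and 10.8. Their changes were 1.66 ± 0.18 and 1.64 ± 0.17 (adjusted p = 7.17e-06 and 5.51e-06). Tapbp, tapasin, which loads peptides onto MHC class I, rose from 20.2, 19.8 and 19.6 to 40.8, 40.04 and 39.6 (0.98 ± 0.10). The 1 member whose difference passed was Ifit2, which rose in cKO from 5.54, 5.85 and 5.78 to 10.04, 13.3 and 10.1 (0.84 ± 0.14) while the WT change was -0.24 ± 0.12 (difference 1.08 ± 0.19, adjusted p = 0.00917).

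Promoter windows of Ifit1 (chr19:34640639-34640938, plus strand), Ifit3 (chr19:34583279-34583578, plus strand) and Isg15 (chr4:156200769-156201068, minus strand) from RefSeq (GRCm38.p6) are shown because every tested member of their list rose. Capitals mark GAAA followed by any 2 bases and a further GAAA, on either strand, the core of the interferon-stimulated response element.
Ifit1: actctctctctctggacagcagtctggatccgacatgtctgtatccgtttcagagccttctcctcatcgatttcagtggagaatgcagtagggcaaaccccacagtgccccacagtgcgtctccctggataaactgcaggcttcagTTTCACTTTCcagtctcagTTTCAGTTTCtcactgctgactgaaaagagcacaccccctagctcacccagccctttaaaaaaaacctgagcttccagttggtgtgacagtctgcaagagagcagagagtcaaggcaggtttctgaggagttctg
Ifit3: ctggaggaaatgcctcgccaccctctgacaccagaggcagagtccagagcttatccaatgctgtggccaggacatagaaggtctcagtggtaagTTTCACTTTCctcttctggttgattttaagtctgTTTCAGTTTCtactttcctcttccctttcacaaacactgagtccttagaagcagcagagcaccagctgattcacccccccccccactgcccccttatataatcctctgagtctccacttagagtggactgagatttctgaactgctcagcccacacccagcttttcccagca
Isg15: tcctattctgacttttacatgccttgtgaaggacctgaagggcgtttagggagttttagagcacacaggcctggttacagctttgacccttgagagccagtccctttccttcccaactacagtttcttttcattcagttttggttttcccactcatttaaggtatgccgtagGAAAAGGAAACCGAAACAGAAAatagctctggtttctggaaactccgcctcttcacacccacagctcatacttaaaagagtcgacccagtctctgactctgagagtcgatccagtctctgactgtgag
The 3 matches in Isg15 overlap each other. This pattern occurred in 7 of 22 windows (31.8%) of the interferon list and in 2.93% of the windows of all genes tested.

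Macrophage markers were also higher at P21. Of 14 tested, 12 rose and 0 fell in cKO, and of the 12 that reached 1 TPM at both ages, which leaves out Folr2 and Cd163, 10 rose. The median of the 14 was 1.03 against 1.36 in WT, and their summed level was 77.7 to 90.4 scaled TPM at P7 and 182.6 to 234 at P21. Folr2, a folate receptor of resident macrophages, rose from 0.412, 0.781 and 0.128 to 7.41, 12.3 and 10.7 (2.95 ± 0.28, adjusted p = 2.8e-06), C1qa, a complement component, from 19.4, 21.04 and 17.8 to 43.2, 56.2 and 51.4 (1.32 ± 0.14), and Cd163, a haemoglobin scavenger receptor, from 0.555, 0.566 and 0.394 to 5.24, 3.697 and 3.17 (1.72 ± 0.18). The macrophage lectin Mgl2 rose by 2.83 ± 0.17. The part of a change in macrophage number in the rise of interferon genes was not tested.

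Imprinted genes that promote or restrain fetal growth fell in the knockout. Of 18 tested of 23 imprinted growth genes 16 fell and 1 rose, median -0.93 against -1.03 in WT. Igf2, the fetal insulin-like growth factor, fell from 365, 343 and 376 to 79.4, 64.5 and 74.8 scaled TPM (-2.3 ± 0.10, adjusted p = 3.29e-09) and its neighbour H19, a noncoding RNA expressed from the other parental copy, from 412, 351 and 383 to 39.1, 37.9 and 45.7 (-3.19 ± 0.11, adjusted p = 1.11e-09). Grb10, an adaptor that inhibits the insulin receptor, fell by 1.27 ± 0.06. Plagl1, a zinc finger regulator of this gene network, fell from 51.6, 49.03 and 56.2 to 14.98, 12.98 and 16.4 (-1.76 ± 0.08), less than the -2.32 ± 0.07 of WT (difference 0.56 ± 0.11, adjusted p = 0.0138). Of 10 embryonic RNA-binding genes, 5 were tested and 3 fell, among them Igf2bp3 (-1.08) and Mex3a (-1.31). The muscle ribosomal protein switch also took place: Rpl3 fell from 439, 448 and 424 to 252, 252 and 249 (-0.80 ± 0.06, adjusted p = 3.67e-07) as its muscle-specific counterpart Rpl3l rose from 31.96, 19.3 and 28.3 to 122, 146 and 151 (2.38 ± 0.20, adjusted p = 8.73e-07).

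Most enzymes that burn ketones and branched-chain amino acids rose in the knockout. Of 14 genes 11 rose and 1 fell, median 0.97 against 0.99 in WT, and 10 rose without scaling. Oxct1, the enzyme that activates ketone bodies for oxidation, measured 137, 109 and 123 scaled TPM at P7 and 467, 480.03 and 450.4 at P21, and its change was 1.92 ± 0.15 (adjusted p = 4.44e-07) beside 1.93 ± 0.12 in WT. The branched-chain enzymes Bcat2, Bckdha and Ivd rose by 1.2 ± 0.07, 1.29 ± 0.09 and 1.35 ± 0.09.

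Among the process lists, fatty acid uptake and oxidation held the largest share of genes whose change differed from WT with median-ratio or quantile scaling. The lists and their members were chosen with earlier results of these data known, so this ranking describes them and tests nothing. Without scaling other lists held larger shares, such as collagen and matrix genes with 27 of 45 and imprinted growth genes with 11 of 18. Of 33 listed, 32 were tested, 6 rose and 17 fell in cKO, whereas 17 rose and 7 fell in WT, with medians of -0.28 and 0.23. The difference passed for 17 of the 32, all lower in cKO, where 4.52% of all tested genes passed in either direction; it passed for 11 lower and 1 higher without scaling and for 12 lower under quantile normalization. The 6 that rose included Lpl, lipoprotein lipase, which releases fatty acids from circulating lipids and went from 447, 373 and 441 to 1277, 1370.2 and 1256 scaled TPM (1.63 ± 0.11, adjusted p = 1.75e-07), with 1.6 ± 0.09 in WT.

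Several oxidation enzymes of the mitochondrion were lower at P21, and 9 of the 32 listed genes did not pass in cKO. Acaa2, the thiolase of the last step of beta oxidation (ENSMUSG00000036880), measured 659.8, 614 and 650.02 in the P7 cKO libraries and 400.4, 402 and 380.1 in the P21 cKO libraries. In WT the P7 libraries held 574, 651, 673, 662 and 621 and the P21 libraries 596, 639, 741 and 631. The cKO groups did not overlap and fell by 0.70 ± 0.07 (adjusted p = 3.35e-06), the WT change was 0.04 ± 0.06, and the difference was -0.74 ± 0.09 (adjusted p = 0.00161). Slc25a20, the carrier that brings acylcarnitines across the inner membrane, fell from 128, 109.6 and 121 to 57.5, 59.98 and 62.6 (-0.98 ± 0.08), with a difference of -0.79 ± 0.10 (adjusted p = 0.0022). Eci2, an isomerase that prepares unsaturated fatty acids for oxidation, fell from 142, 133 and 137 to 93.9, 97.4 and 95.6 (-0.52 ± 0.06), with a difference of -0.58 ± 0.07 (adjusted p = 0.00179). Hadha, the alpha subunit of the trifunctional protein, fell by 0.71 ± 0.06, and its difference of -0.43 ± 0.08 passed (adjusted p = 0.0123) but not without scaling. Fabp3, the cytosolic fatty acid carrier, fell in both genotypes, from 7804, 6842 and 7776 to 3216, 3015 and 3181 in cKO, with a steeper fall than in WT (difference -0.65 ± 0.10, adjusted p = 0.00616), a call lost under quantile normalization. Angptl4, an inhibitor of lipoprotein lipase, and Acot2, a mitochondrial thioesterase, fell in cKO with changes of -3.45 ± 0.37 and -1.81 ± 0.12, beside -2.84 ± 0.31 and -1.56 ± 0.10 in WT. AGGTCA, the half-site of nuclear receptors such as PPARs, occurred in 9 of 31 promoter windows of this list (29%) and in 12.4% of the windows of all genes tested, which says nothing of binding.

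**Figure D3:**
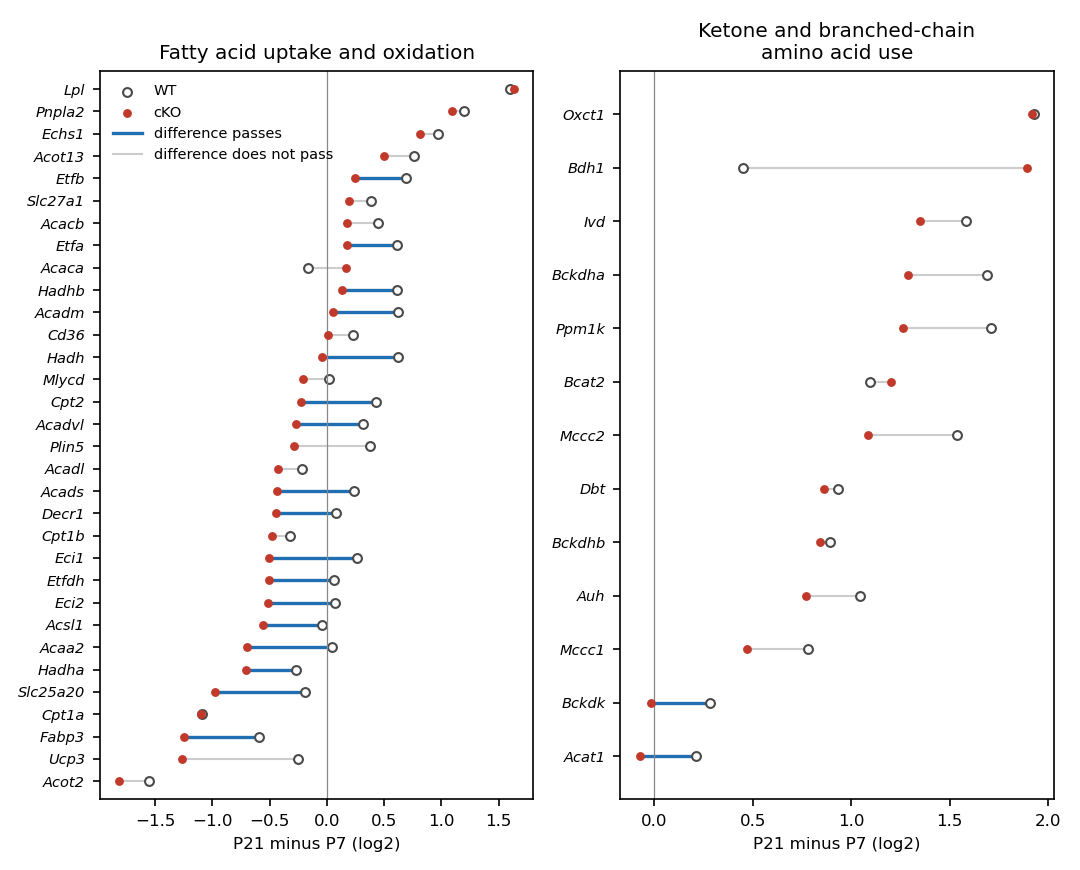
Change from P7 to P21 (log2 of scaled TPM + 1, x axis) of each fatty acid gene (left) and 13 of the 14 ketone or branched-chain amino acid genes (right) in cKO (red) and WT (open). Blue connectors mark the 17 of 32 fatty acid genes and the 2 genes on the right whose difference passed, and the cKO point is the lower one in each.

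Among genes of pyruvate entry and the citric acid cycle, more listed genes rose than fell. Of 30 tested, 16 rose and 1 fell in cKO against 25 and 1 in WT, with medians of 0.23 and 0.65, and the difference passed as lower in cKO for 10; without scaling 7 rose and 6 fell, and the difference was lower for 3 and higher for 3. Mpc1, a subunit of the mitochondrial pyruvate carrier, rose from 303, 279.6 and 298 to 668, 641 and 642 (1.14 ± 0.08, adjusted p = 1.45e-07) and Pdk2, a kinase that inhibits pyruvate dehydrogenase, from 117, 116 and 118 to 214, 205 and 197 (0.80 ± 0.06). Pdk3, another such kinase, fell by 1.47 ± 0.10. Their WT changes were 1.25 ± 0.06, 0.98 ± 0.05 and -1.73 ± 0.08, and none of the 3 passed the difference.

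Ogdhl, an isoform of the first subunit of 2-oxoglutarate dehydrogenase (ENSMUSG00000021913, chr14:32322019-32348151), rose less in the knockout than in WT. It measured 4.91, 5.11 and 4.13 scaled TPM at P7 and 21.5, 13.4 and 14.05 at P21 in cKO. In WT it measured 4.38, 3.68, 4.89, 4.01 and 5.396 at P7 and 64.05, 57.2, 86.8 and 60.4 at P21, so the P21 groups of the genotypes did not overlap. The changes were 1.57 ± 0.17 (adjusted p = 8.45e-06) and 3.65 ± 0.14, with a difference of -2.08 ± 0.22 (adjusted p = 0.000567). Idh3a, the catalytic subunit of NAD-dependent isocitrate dehydrogenase, held 282, 257 and 277 and 271, 264 and 259.5 in cKO, overlapping groups, with a difference of -0.54 ± 0.10 (adjusted p = 0.0111) that was lost without scaling.

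Nuclear genes of the respiratory chain rose by small amounts that depended on the scaling. Of the 37 tested complex I genes 26 rose and 0 fell in cKO, median 0.31 against 0.64 in WT. Complexes II and III had 7 of 14 higher and 0 lower, complex IV 9 of 15 higher and 2 lower and complex V 7 of 16 higher and 0 lower (18 listed), with cKO medians of 0.24, 0.27 and 0.25 against 0.58, 0.56 and 0.54. Differences that were lower in cKO passed for 5, 5, 1 and 4 of these genes in the same order. Without scaling 9 complex I genes rose and 3 fell, 1 gene of complexes II and III, 4 of complex IV and 0 of complex V rose, and lower differences passed for 1, 1, 0 and 0.

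The muscle isoforms of complex IV rose by more. Cox7a1 rose from 795, 725 and 795 to 2468, 2423 and 2378 scaled TPM (1.65 ± 0.09, adjusted p = 1.71e-08), Cox8b by 0.87 ± 0.08 and Cox6a2 by 0.82 ± 0.08. Widely expressed counterparts fell for 2 of these 3, Cox6a1 from 619, 515 and 498 to 287, 308 and 303 (-0.85 ± 0.11, adjusted p = 3.24e-05) and Cox8a with a change of -0.57 ± 0.08, and none of these 5 passed the difference. Cox7a2, the widely expressed counterpart of Cox7a1, did not pass in cKO (change -0.15; named after its value was seen). Ndufs1, the largest subunit of complex I, rose from 269, 254 and 274 to 321, 323 and 343 (0.31 ± 0.06) with a difference of -0.39 ± 0.07 (adjusted p = 0.013), and without scaling both calls were lost. Atpif1, an inhibitor of the ATP synthase, held 499, 544 and 497 and 485, 529.6 and 510.1 in cKO (-0.01 ± 0.07, adjusted p = 0.897) while in WT it fell by 0.61 ± 0.06 (difference 0.60 ± 0.10, adjusted p = 0.0064).

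Transcripts of the mitochondrial genome rose for 10 of 13 genes in cKO, median 0.66 against 1.21 in WT, for 9 without scaling and for 6 under quantile normalization. The changes of the 13 in cKO ran from 0.05 to 4.08, so they were uneven. Levels were uneven too, and library 63 held mt-Atp8 at 94911 and mt-Atp6 at 175 scaled TPM. How reads were assigned to single mitochondrial genes was not tested. mt-Nd4, a complex I subunit, rose from 5759.6, 5836 and 6119.98 to 9539, 8857 and 9625 scaled TPM (0.66 ± 0.09, adjusted p = 7.11e-05) and mt-Cytb, of complex III, from 3730.2, 3385 and 3631 to 5868, 5187 and 5469.99 (0.62 ± 0.11). Both rose less than in WT, with differences of -0.64 ± 0.12 and -0.72 ± 0.14 (adjusted p = 0.0124 and 0.013). The difference of mt-Nd4 was lost under quantile normalization, with no filter and with the P1 libraries added, and that of mt-Cytb with no filter.

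Of 40 mitochondrial ribosome genes 11 rose and 4 fell in cKO, where 21.8% of all genes tested rose and 23.6% fell. The median was 0.11 against 0.37 in WT, and 1 rose and 18 fell without scaling. Biogenesis regulators, with 7 of 20 higher and 2 lower, included Esrra, an estrogen-related receptor that drives mitochondrial genes (70.3, 76.6 and 67.7 to 87.8, 87.6 and 89.3, 0.30 ± 0.08, not called without scaling), and Tfb2m, a mitochondrial transcription factor (0.55 ± 0.08). Without scaling 2 rose and 6 fell.

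Mitochondrial dynamics and mitophagy, the processes named in the study's title, were covered by separate lists. Of 17 tested fission and fusion genes 7 rose and 1 fell in cKO, where 21.8% of all genes tested rose and 23.6% fell. The median was 0.10 against 0.38 in WT, and 2 rose and 6 fell without scaling. Mfn2, a GTPase that fuses outer membranes, measured 240.1, 221 and 234 at P7 and 312, 305 and 269 at P21 (0.35 ± 0.07, adjusted p = 0.000851, not called without scaling), and Oma1, the protease that cleaves OPA1, 8.95, 9.33 and 10.2 and 16.7, 17.7 and 17.5 (0.80 ± 0.07, adjusted p = 9.73e-07). Phb2, prohibitin 2, a scaffold of the inner membrane, fell by 0.37 ± 0.08. The difference passed as lower in cKO for 3 of the 17, where 2.92% of all genes tested passed as lower, and for 0 without scaling.

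Of 25 tested mitophagy and autophagy genes 13 rose and 2 fell in cKO, where 21.8% of all genes tested rose and 23.6% fell. The median was 0.17 against 0.34 in WT, and 7 rose and 6 fell without scaling. Pink1, the kinase that marks damaged mitochondria, rose from 100.2, 91.9 and 105 to 209, 209.9 and 205 scaled TPM (1.07 ± 0.09, adjusted p = 1.25e-06), beside 1.43 ± 0.08 in WT. Bnip3, a mitophagy receptor, rose from 51.3, 54.4 and 54.6 to 131, 98.8 and 101 (1.02 ± 0.11) and Gabarapl1, an autophagosome membrane protein, from 33.3, 26.7 and 30.4 to 89.2, 68.2 and 63.4 (1.25 ± 0.12, adjusted p = 3.05e-06). In all 3 the P21 libraries lay above the P7 libraries, and groups without overlap were found for 55.8% of all genes tested. None of the 25 passed the difference, which only 4.52% of all genes tested passed, so a count of 0 in a list of this size is near that share. The adjusted p of the difference was 0.11 for Pink1, 0.736 for Bnip3 and 0.198 for Gabarapl1.

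**Figure D4:**
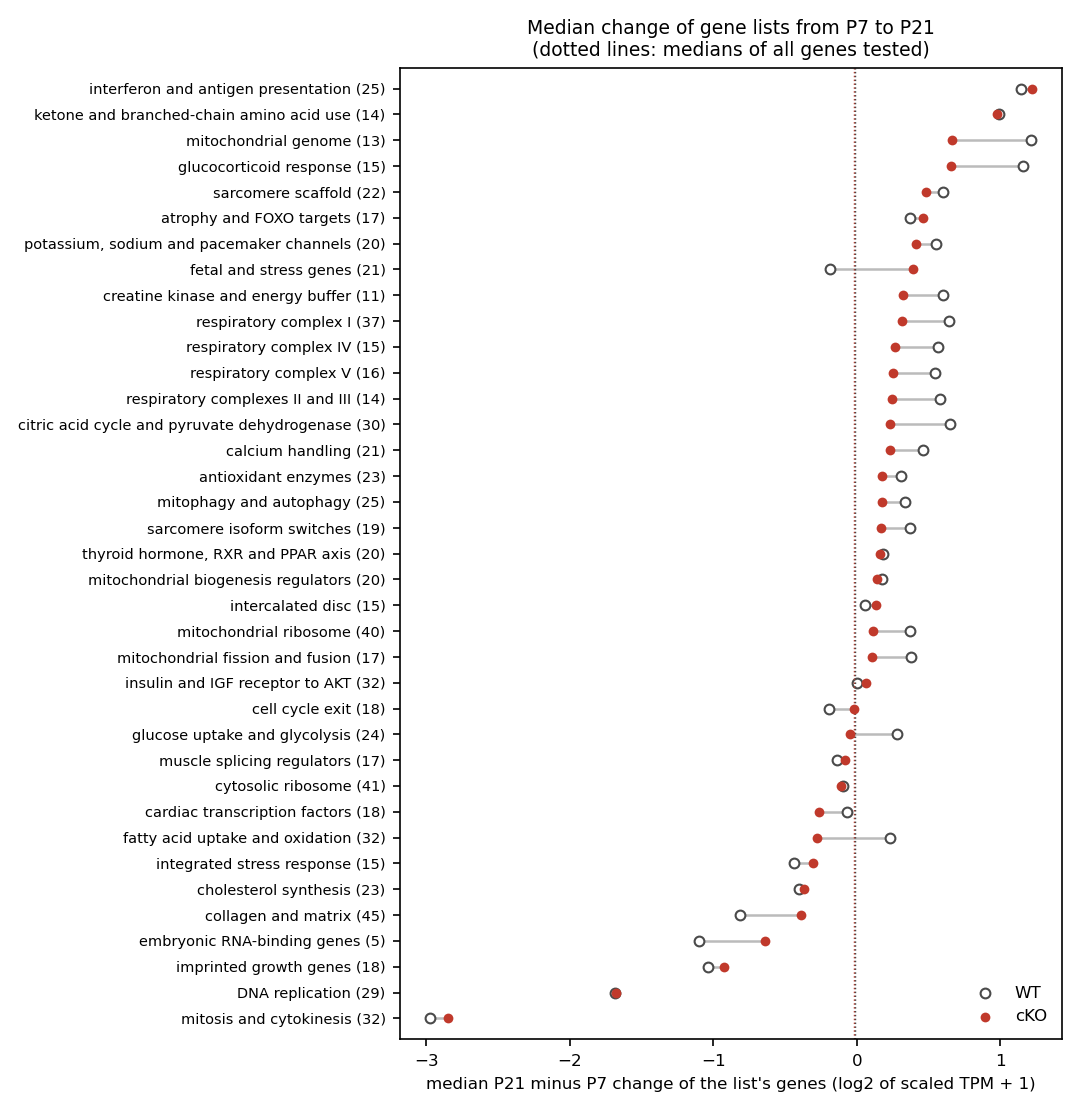
Median P21 minus P7 change (log2 of scaled TPM + 1, x axis) of the genes of each process list in cKO (red) and WT (open), with the number of genes tested in brackets and dotted lines at the medians of all genes. The mitosis, DNA replication, ketone and interferon lists have both points close together, and the fatty acid list lies below 0 in cKO and above it in WT.

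Of 24 glucose uptake and glycolysis genes 8 rose and 6 fell in cKO, where 21.8% of all genes tested rose and 23.6% fell, median -0.05 against 0.28 in WT, and without scaling 6 rose and 13 fell. Slc2a4, the insulin-responsive glucose transporter GLUT4, rose from 84.01, 70.5 and 83.2 to 199, 162 and 151 scaled TPM (1.09 ± 0.11, adjusted p = 3.35e-06), and Pfkfb2, which makes the activator of phosphofructokinase in heart, from 11.4, 8.81 and 11.7 to 25.9, 24.5 and 28.04 (1.23 ± 0.13). The difference passed as lower in cKO for 6 of the 24, and for 1 lower and 2 higher without scaling. Of 11 tested energy buffer genes 7 rose and 1 fell. Ckmt2, the mitochondrial creatine kinase, rose from 521, 429.998 and 499 to 1477, 1388 and 1399 (1.56 ± 0.12, adjusted p = 4.51e-07), and Ckb, the brain-type creatine kinase, fell from 105, 94.1 and 89.8 to 31.4, 43.2 and 46.8 (-1.25 ± 0.18).

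Of 21 calcium handling genes 8 rose and 6 fell in cKO, where 21.8% of all genes tested rose and 23.6% fell, median 0.23 against 0.46 in WT, and 5 differences passed, all lower in cKO (2 lower and 2 higher without scaling). Atp2a2, the pump that refills the sarcoplasmic reticulum, measured 2461, 2155 and 2471 at P7 and 4047, 3846 and 3435 at P21 (0.68 ± 0.10, adjusted p = 0.000174, not called under quantile normalization), and S100a1, which enhances its activity, 443, 413 and 434 and 829, 681 and 708 (0.78 ± 0.08). Hrc, a calcium-binding protein of the reticulum, rose from 169, 132 and 157 to 325, 349 and 325 (1.12 ± 0.10), less than in WT (difference -0.70 ± 0.13, adjusted p = 0.0124). Casq2, calsequestrin, the main calcium buffer there, held 491, 471 and 483 and 428, 485 and 470.1, overlapping groups, while WT rose by 0.46 ± 0.06. Its difference was -0.52 ± 0.09 (adjusted p = 0.0111) and was lost without scaling. Cacna1g, a T-type calcium channel of the fetal ventricle and the pacemaker, fell from 19.8, 24.6 and 23.8 to 4.38, 4.92 and 5.57 (-2.0 ± 0.15, adjusted p = 2.58e-07), further than in WT (difference -1.26 ± 0.19, adjusted p = 0.00485).

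Of 20 tested of 22 potassium, sodium and pacemaker channel genes 9 rose and 4 fell in cKO, where 21.8% of all genes tested rose and 23.6% fell. The median was 0.41 against 0.55 in WT. Kcnip2, the subunit that brings the transient outward current to the adult membrane, rose from 61.8, 64.9 and 63.8 to 193, 167 and 162 scaled TPM (1.43 ± 0.08, adjusted p = 3.56e-08), and Kcne1, the subunit of the slow delayed rectifier, fell from 291, 273 and 281 to 33.1, 42.7 and 41.8 (-2.82 ± 0.10, adjusted p = 1.28e-09). Kcnd2, a pore of the transient outward current, rose from 1.61, 1.67 and 2.04 to 6.73, 5.16 and 4.61 (1.22 ± 0.13), less than the 2.08 ± 0.11 of WT (difference -0.86 ± 0.17, adjusted p = 0.0145). Kcnj3, an acetylcholine-activated potassium channel, held 5.12, 3.68 and 3.71 and 4.88, 4.97 and 7.06 in overlapping groups, with a difference of -1.26 ± 0.20 (adjusted p = 0.0064). Differences lower in cKO passed for 6 of the 20, and for 2 lower and 3 higher without scaling.

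The natriuretic peptides rose in the knockout and not in WT. Nppa, atrial natriuretic peptide (ENSMUSG00000041616, chr4:148000722-148002079), measured 502, 738 and 537 scaled TPM at P7 and 17028, 8666 and 8669 at P21 in cKO, with library 55 the highest. The WT libraries held 329.6, 199, 364, 235 and 360.5 at P7 and 229, 218, 524 and 233 at P21, all below every cKO library except that the highest WT value at P21 exceeded the lowest cKO value at P7. The change in cKO was 4.21 ± 0.33 (adjusted p = 4.67e-07), that in WT -0.01 ± 0.27, and the difference 4.22 ± 0.43 (adjusted p = 0.00054) was the largest of any named gene. Nppb, brain natriuretic peptide, measured 499.7, 548 and 688 and 1164, 899 and 940.2 in cKO and rose by 0.79 ± 0.28 (adjusted p = 0.0329), while WT held 171 to 411 at P7 and 90.5 to 287 at P21 and fell by 1.05 ± 0.23. Its difference of 1.84 ± 0.36 (adjusted p = 0.0149) was lost without P7 cKO library 69, and its rise within cKO was lost without scaling, under quantile normalization, and without any 1 of libraries 69, 75, 55 and 64.

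The promoter windows of Nppa (chr4:148000472-148000771) and Nppb (chr4:147985650-147985949), both on the plus strand and next to each other on the chromosome, are shown from RefSeq (GRCm38.p6), since these neighbours had the largest differences upward among stress genes. Capitals mark GATAA on either strand, the core of sites of GATA factors.
Nppa: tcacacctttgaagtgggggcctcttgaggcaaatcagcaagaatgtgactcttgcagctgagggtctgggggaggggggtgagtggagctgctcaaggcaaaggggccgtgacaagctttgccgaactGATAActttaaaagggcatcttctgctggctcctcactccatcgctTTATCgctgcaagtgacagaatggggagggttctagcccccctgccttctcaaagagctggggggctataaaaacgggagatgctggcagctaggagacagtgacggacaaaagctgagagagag
Nppb: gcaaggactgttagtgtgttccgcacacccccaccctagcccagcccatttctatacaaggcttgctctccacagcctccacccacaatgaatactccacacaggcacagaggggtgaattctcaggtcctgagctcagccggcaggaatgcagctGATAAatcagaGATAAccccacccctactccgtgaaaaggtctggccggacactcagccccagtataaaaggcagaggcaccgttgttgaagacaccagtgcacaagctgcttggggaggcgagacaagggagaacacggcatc
GATAA occurred in 16.5% of the windows of all genes tested. Gata4, the cardiac GATA factor, fell from 78.4, 89.7 and 86.7 to 47.2, 51.3 and 49.04 scaled TPM in cKO (-0.77 ± 0.06) with a WT change of -0.75 ± 0.05.

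The list of fetal and stress genes as a whole was mixed, with 10 of 21 tested higher and 4 lower in cKO. Over all genes tested 21.8% rose and 23.6% fell. The median of the 21 was 0.39 against -0.18 in WT. Differences passed for 4 genes higher and 1 lower in cKO, where 1.6% of all genes tested passed as higher and 2.92% as lower. Clu, clusterin, an extracellular chaperone, rose from 80.4, 76.97 and 93.8 to 203, 201 and 189 (1.23 ± 0.07) as in WT (1.49 ± 0.06). Fhl2, a LIM protein of the sarcomere, held 915, 830.5 and 885 at P7 and 1011, 971 and 953 at P21, a change of 0.16 ± 0.09 that did not pass (adjusted p = 0.185), where WT rose by 0.93 ± 0.08 (difference -0.77 ± 0.12, adjusted p = 0.0058).

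Matrix genes fell in the knockout. Of 45 tested, 27 fell and 6 rose in cKO, median -0.39 against -0.82 in WT, and the difference passed for 10, all higher in cKO (27 without scaling). The count of 6 became 3 without P7 cKO libraries 69 or 82 or P21 cKO library 59. Postn, periostin, a matricellular protein of activated fibroblasts, fell from 311, 354 and 323 to 54.1, 65.3 and 66.98 scaled TPM (-2.39 ± 0.11, adjusted p = 6.36e-09), less than the -3.15 ± 0.09 of WT (difference 0.76 ± 0.14, adjusted p = 0.013). Fibronectin, Fn1, fell from 138, 152 and 133 to 37.1, 37.6 and 35.2 (-1.91 ± 0.11) and Col18a1, a basement membrane collagen, with a change of -1.91 ± 0.10. Bgn, the proteoglycan biglycan, held 119.8, 130.1 and 114 and 120.4, 122 and 122 in cKO, overlapping groups, while WT fell by 0.66 ± 0.07 (difference 0.66 ± 0.11, adjusted p = 0.00857).

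The collagen prolyl hydroxylase subunit P4ha3 (ENSMUSG00000051048, chr7:100285520-100319699) separated the genotypes at both ages. It measured 708, 665 and 763 scaled TPM at P7 and 642, 604 and 575 at P21 in cKO, and 2.75, 2.65, 1.98, 2.89 and 1.99 at P7 and 0.0868, 0.385, 0.123 and 0.15 at P21 in WT. Every cKO library was thus above every WT library. Its change within cKO was -0.23 ± 0.11 (adjusted p = 0.104), that in WT, at these low levels, -1.55 ± 0.09, and the difference 1.32 ± 0.14 (adjusted p = 0.000567). Library 63 held 0.0601, and with it placed in P21 cKO the difference was -0.97.

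Markers of heart cell types also moved with age. Of 14 cardiomyocyte markers 6 rose and 2 fell in cKO (5 and 7 without scaling), median 0.12 against 0.52 in WT, and the difference passed for 2, both lower in cKO (3 higher without scaling). Their summed level was 49540.7 to 53588.5 scaled TPM at P7 and 59384 to 60777.9 at P21 in cKO, and 44024.6 to 54002.2 and 61886.1 to 71010.8 in WT. The part of this smaller rise in the lower differences of fatty acid, citric acid cycle and respiratory genes was not tested. Of 12 mural cell markers 3 rose and 2 fell in cKO, and 2 differences passed, both higher in cKO. Over all genes tested 21.8% rose and 23.6% fell in cKO. The summed level of 14 fibroblast markers was 1377.9 to 1660.8 scaled TPM at P7 and 1973 to 2206.9 at P21 in cKO. In WT it was 1458.6 to 1800 at P7 and 1522.9 to 1692.7 at P21. Of the 14, 7 rose and 5 fell in cKO. The 5 became 2 without P7 cKO library 75 or P21 cKO library 55. Gsn, gelsolin, an actin-severing protein, had the largest rise, from 82.5, 87.4 and 75.7 to 657, 675 and 681 (3.02 ± 0.10, adjusted p = 5.17e-10). Gsn is part of the fibroblast sum, and its rise in scaled TPM was about as large as that of the sum. Pi16 and Smoc2 rose by 1.22 ± 0.09 and 1.16 ± 0.10. Col1a1, the main fibrillar collagen, fell from 141, 158 and 133 to 67.9, 73.8 and 91.3 (-0.89 ± 0.12). Endothelial markers fell for 6 of 14 and rose for 2, and their sum was 2031.5 to 2157.2 at P7 and 1522.5 to 1644.3 at P21, with Cldn5, a tight junction protein, going from 84.3, 85.9 and 86.2 to 48.6, 39.97 and 36.8 (-1.02 ± 0.16). The part of such shifts in cell type markers in the other results was not tested.

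Red blood cell genes were highest in 1 of the P21 cKO libraries. The summed red blood cell markers were 6609.5 to 8588.4 scaled TPM at P7 and 23433.2, 11300.6 and 13511.2 at P21 in cKO, and WT P21 libraries also spread, from 7282.2 to 20870.5. Hbb-bs, a beta globin whose reads can be shared with Hbb-bt, measured 3367, 2787 and 2675 and 10149, 4632 and 5619.8 and rose by 1.13 ± 0.34 (adjusted p = 0.0148), and this call was lost without P21 cKO library 55 and under quantile normalization. Tfrc, the transferrin receptor, which brings iron into the cell, fell in cKO from 79.02, 89.1 and 75.5 to 31.6, 52.3 and 39.5 (-0.99 ± 0.20, adjusted p = 0.00113), where the WT change was 0.25 ± 0.16. Its difference of -1.24 ± 0.25 (adjusted p = 0.0184) was lost without P7 cKO library 69.

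The 2 genes that share the name PDK1 were measured in every library. Pdpk1 (ENSMUSG00000024122, chr17:24073680-24150924) stood at 7.25, 6.85 and 7.28 scaled TPM at P7 and 6.19, 5.83 and 5.25 at P21 in cKO, and at 9.501, 9.502, 7.49, 6.94 and 8.07 and 9.48, 8.98, 8.41 and 7.64 in WT. It fell within cKO by 0.27 ± 0.08 (adjusted p = 0.0113), a call lost without P21 cKO library 64 and without the title term, and the difference of -0.30 ± 0.10 did not pass (adjusted p = 0.11). Its RNA was therefore still present in the knockout at both ages, and values per gene do not show whether a deleted exon is missing. Pdk1 stood at 35.1, 34.5 and 33.7 and 42.1, 34.8 and 33.5 in cKO, overlapping groups (0.09 ± 0.08, adjusted p = 0.404).

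Around the insulin and IGF receptors 8 of 32 genes rose and 5 fell in cKO (21.8% of all genes tested rose and 23.6% fell), median 0.06 against -0.0026 in WT, and 3 rose and 10 fell without scaling. Insr, the insulin receptor, went from 20.4, 21.1 and 22.1 to 35.05, 30.4 and 30.1 scaled TPM (0.56 ± 0.09, adjusted p = 0.000175) and its substrate Irs1 from 3.56, 3.77 and 3.497 to 10.2, 9.799 and 9.43 (1.23 ± 0.14, adjusted p = 1.7e-05). Neither difference passed (adjusted p = 0.0864 for Insr and 0.136 for Irs1). Akt1, the kinase at the end of this list, fell from 167, 164 and 171 to 113, 113 and 116 (-0.55 ± 0.05) as in WT (-0.58 ± 0.04). Igf1r, the IGF receptor, held 6.42, 8.16 and 7.71 and 9.28, 8.82 and 7.96 in overlapping groups while WT fell by 0.53 ± 0.09 (difference 0.74 ± 0.14, adjusted p = 0.0144). Pik3r1, a regulatory subunit of PI3-kinase, rose from 10.3, 9.3002 and 9.85 to 15.4, 13.3 and 12.9 (0.45 ± 0.09), less than in WT (difference -0.62 ± 0.11, adjusted p = 0.0111), and both calls were lost without scaling.

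A mixed list of muscle atrophy genes and targets of FOXO factors, which AKT holds out of the nucleus, had 17 tested genes. Of these 10 rose and 1 fell in cKO, where 21.8% of all genes tested rose and 23.6% fell. The median was 0.46 against 0.37 in WT. The activity of FOXO factors was not tested. Sesn1, a stress-induced inhibitor of growth signalling, rose from 26.7, 25.1 and 25.9 to 76.7, 72.5 and 69.3 (1.46 ± 0.13, adjusted p = 1.54e-06), Klf15, a metabolic transcription factor, from 5.29, 6.98 and 4.11 to 29.6, 21.1 and 23.5 (2.0 ± 0.16), and Bcl6, a transcriptional repressor, from 1.81, 1.52 and 1.602 to 8.78, 8.53 and 8.75 (1.87 ± 0.15). The WT changes of these 3 were 1.37 ± 0.11, 1.89 ± 0.13 and 2.16 ± 0.13. In this list 1 of 17 differences passed, lower in cKO, which is near the 4.52% of all genes tested that passed in either direction.

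Of 20 tested of 22 genes of the thyroid hormone, RXR and PPAR axis 9 rose and 6 fell in cKO. Over all genes tested 21.8% rose and 23.6% fell. The median of the 20 was 0.16 against 0.18 in WT, and the difference passed for 3, all lower in cKO. Without scaling 6 rose and 7 fell, and 2 differences were higher and 1 lower. Thrb, a thyroid hormone receptor, rose from 1.36, 1.18 and 1.28 to 5.52, 3.85 and 4.44 scaled TPM (1.29 ± 0.14, adjusted p = 6.61e-06), with 1.5 ± 0.11 in WT, and Klf9, a target of thyroid hormone and glucocorticoids, from 15.01, 11.4 and 16.3 to 55.4, 33.3 and 33.1 (1.42 ± 0.18, adjusted p = 4.11e-05), with 1.77 ± 0.15 in WT. Of 15 glucocorticoid response genes 8 rose and 0 fell in cKO, median 0.65 against 1.15 in WT, and the count of 8 became 4 without P7 cKO library 75 and 5 without P21 cKO library 55. Cholesterol synthesis genes fell for 13 of 23 tested and rose for 1, median -0.37 against -0.40 in WT. Sqle, squalene epoxidase, went from 4.12, 3.801 and 3.87 to 0.804, 1.69 and 1.87 (-1.04 ± 0.18, adjusted p = 0.000397).

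Genes with the largest rise in cKO outside these groups rose in WT too. Ces1d, a carboxylesterase that hydrolyses triglycerides, measured 0.6, 0.446 and 0.503 scaled TPM at P7 and 14.5, 42.1 and 35.8 at P21 (4.26 ± 0.34, adjusted p = 5.84e-07), with 4.74 ± 0.28 in WT. Art1, an ADP-ribosyltransferase of muscle, rose from 5.41, 3.73 and 4.59 to 107, 85.4 and 79.99 (4.04 ± 0.21), and Ano10 from 10.7, 8.72 and 11.6 to 104, 135 and 99.9998 (3.33 ± 0.14). Xdh, xanthine dehydrogenase, an enzyme of purine breakdown, rose from 2.35, 1.699 and 1.56 to 33.2, 18.02 and 14.7 (2.93 ± 0.24). The WT changes of these 3 were 4.39 ± 0.17, 3.02 ± 0.12 and 3.37 ± 0.20, and none of the 4 genes passed the difference.

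The largest differences outside the groups above were in genes of several functions. Bex1, a small adaptor protein of developing tissue, fell in cKO from 54.7, 48.04 and 60.1 to 13.4, 12.3 and 20.1 scaled TPM (-1.79 ± 0.20), while in WT it held 29.9 to 46.5 at P7 and 1.46 to 2.64 at P21 (-3.89 ± 0.17), a difference of 2.1 ± 0.26 (adjusted p = 0.00179). Bcl2, the inhibitor of apoptosis, rose from 2.44, 2.85 and 2.51 to 6.19, 4.93 and 4.91 in cKO (0.81 ± 0.10) and fell in WT, where it held 2.17 to 2.86 at P7 and 1.31 to 1.35 at P21 (-0.55 ± 0.09), a difference of 1.36 ± 0.14 (adjusted p = 0.00054). The kinase Cdkl1 likewise rose from 6.76, 7.72 and 6.94 to 11.5, 10.4 and 9.14 (0.48 ± 0.09, not called without scaling) and in WT fell by 0.93 ± 0.07, a difference of 1.41 ± 0.12 (adjusted p = 0.000305). Nab2, a corepressor of EGR factors, rose from 6.32, 7.19 and 4.998 to 17.8, 13.9 and 12.2 (1.12 ± 0.14), where the WT change of -0.23 ± 0.11 did not pass, a difference of 1.35 ± 0.18 (adjusted p = 0.0022).

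In the other direction Csdc2, an RNA-binding cold shock domain protein, rose from 2.02, 2.46 and 1.83 to 10.5, 10.6 and 8.57 in cKO (1.81 ± 0.14), less than the 3.27 ± 0.12 of WT (difference -1.46 ± 0.19, adjusted p = 0.00193). Gsg1l, an AMPA receptor-associated membrane protein, fell from 5.24, 4.85 and 4.88 to 1.18, 1.39 and 1.43 (-1.36 ± 0.13) where the WT change was 0.02 ± 0.11 (difference -1.38 ± 0.17, adjusted p = 0.00179). Gadd45g, a growth arrest gene, fell from 36.1, 25.3 and 38.4 to 13.3, 10.2 and 11.9 (-1.41 ± 0.29) and its difference of -1.83 ± 0.38 (adjusted p = 0.019) was lost without any 1 of cKO libraries 69, 82 and 59.

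Of the 41 genes named here whose difference passed, 36 kept the call with any 1 of the 15 libraries left out, and 16 of these also passed within the 11 plain-number libraries. There the difference was 4.06 for Nppa, 2.33 for Bex1, 1.35 for Cdkl1, 1.33 for Bcl2, 1.30 for P4ha3, 1.29 for Nab2, 0.94 for Postn and 0.75 for Bgn. It was -2.10 for Ogdhl, -2.06 for Tnni2, -1.29 for Gsg1l, -1.24 for Csdc2, -1.10 for Cacna1g, -0.77 for Acaa2, -0.76 for Slc25a20 and -0.63 for Eci2. All 41 differences kept their sign within these libraries, at 0.649 to 1.23 times (median 0.936) their size in the full fit. These libraries are part of the full fit from which the 41 were chosen, so this agreement is no independent test. Of all 617 difference calls, 11.7% were made again within the plain-number libraries. Without P7 cKO library 69, 34.8% of the 617 were made again, and 36 of the 41. The differences of Fabp3, Hadha, Hrc and Plagl1 were lost with the P1 libraries added, and those of Hadha and Ndufs1 under quantile normalization. With library 63 placed in P21 WT all 41 passed, and with it placed in P21 cKO 0 did.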

How the data were processed

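RNA of mouse hearts was extracted with RNA iso Plus and made into libraries with a SMARTer mRNA-Seq kit, per the labels' protocols. The submitters' processing notes name TopHat2 2.0.14, Cufflinks 2.2.1 and the genome build mm10; the tool and the annotation behind the TPM are not given in the sources used here. The authors deposited TPM per gene and library, which have the same sum in every library and keep no read depth; their mean columns, and 2 further columns that match no sample of the series, were not used.

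The TPM of the 15 P7 and P21 libraries were divided by median-ratio factors from 16506 genes, and log2(scaled TPM + 1) was fitted with limma 3.58.1 (lmFit, eBayes with trend; R 4.3.3, data.table version 1.17.8), with terms for the 4 groups and for the style of the title, on genes of 1 TPM or more in 3 or more of the 6 cKO libraries. The residual degrees of freedom were 10. Calls needed an adjusted p under 0.05. The WT libraries entered only to estimate the spread and the difference between genotypes. The fit was tested on simulated data with 200 changed genes of 13645, all with a mean level of about 5 TPM or more. The real comparison within cKO called 45.4% of genes, so the rates that follow hold for the simulated setting and do not cover genes of lower level. Within cKO it recovered 93% of 2-fold and 57% of 1.4-fold changes, and for the difference 74% and 30%. A difference that did not pass therefore does not show equal change in both genotypes.

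Genes were described through 50 lists with 949 symbols, of which 944 are in the table. The members and the lists were chosen with earlier results of these data known. Named genes were Pdpk1 and Pdk1, the sarcomere isoform genes, up to 12 per direction with the largest change in cKO and 8 per direction with the largest difference (mean of 5 TPM or more), up to 5 members of a list with the smallest p (2 where none passed) and 2 further members that passed the difference; not all are printed, and some are not reported here. Sex genes, placeholder names and pseudogenes were left out of the ranked choices. Gene positions are those of GENCODE M21 on mm10. Other scalings, pseudocounts, filters, libraries and weights were tried as alternatives.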

Additional observations from a re-analysis of the deposited data

Results flagged for a closer look

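The following changes from P7 to P21 differed between cKO and WT by the test of the difference itself (cKO change minus WT change, log2, limma with Benjamini-Hochberg adjustment, 3 against 3 cKO and 5 against 4 WT libraries). The change was higher in cKO for Nppa (4.22), Bex1 (2.10), Nppb (1.84), Cdkl1 (1.41), Bcl2 (1.36), Nab2 (1.35), P4ha3 (1.32), Ifit2 (1.08), Postn (0.76), Igf1r (0.74), Bgn (0.66), Ccnd2 (0.62), Atpif1 (0.60), Plagl1 (0.56) and Pkp2 (0.43).

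It was lower in cKO for Ogdhl (-2.08), Tnni2 (-2.01), Gadd45g (-1.83), Myl1 (-1.57), Csdc2 (-1.46), Gsg1l (-1.38), Cacna1g (-1.26), Kcnj3 (-1.26), Tfrc (-1.24), Tcap (-1.12) and Rpl3l (-1.01). Smaller differences in this direction were those of Kcnd2 (-0.86), Slc25a20 (-0.79), Fhl2 (-0.77), Acaa2 (-0.74), mt-Cytb (-0.72), Hrc (-0.70), Ccng1 (-0.67), Fabp3 (-0.65), mt-Nd4 (-0.64), Pik3r1 (-0.62), Eci2 (-0.58), Idh3a (-0.54), Casq2 (-0.52), Hadha (-0.43) and Ndufs1 (-0.39). The difference of Rpl3l, a muscle ribosomal protein, was lost in 11 of the 15 fits with 1 library left out, that of Myl1 in 4 (P21 WT library 3, P7 cKO library 69 and P21 cKO libraries 55 and 59), that of Gadd45g in 3 (P7 cKO libraries 69 and 82, P21 cKO library 59), and those of Nppb and Tfrc without P7 cKO library 69.

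In WT at P21, Nppa was 524 scaled TPM in library 57, where its gap to the next library, as a share of the range of the 4, passed Dixon's critical value, which about 1 in 20 groups pass by chance.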

How the results depend on the processing

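With 1 library left out in turn, the calls within cKO ranged from 5355 to 6444 (2553 to 3107 higher, 2802 to 3337 lower), those within WT from 7449 to 8173 (3678 to 4052 higher, 3768 to 4121 lower) and those of the difference from 219 to 1109 (86 to 367 higher, 133 to 742 lower). A 2-fold threshold left 1143 cKO calls (567 higher, 576 lower), 1370 WT calls (676 and 694) and 88 differences (34 and 54). Without scaling the calls were 1440 higher and 5956 lower in cKO, 1168 higher and 9317 lower in WT, and 1920 for the difference (1793 and 127). Quantile normalization gave 251 lower differences. The difference gave 81 calls (38 higher, 43 lower) in plain-number libraries, 346 (142 and 204) with the P1 libraries added, 1205 (418 and 787) with array quality weights and 0 (0 and 0) with library 63 as P21 cKO; the cause was not tested. No paired analysis was possible because the cKO libraries of both ages share no replicate number and the WT libraries share only 1. Changes within cKO of the named genes that turned sign were those of Myh6 (-0.11), Myh7 (-0.16), Bgn (-0.023) and Fhl2 (-0.041) under quantile normalization, of Bgn (-0.27), Fhl2 (-0.11), Igf1r (-0.040), Myl1 (-0.085) and Pdk1 (-0.18) without scaling, of Bgn (-0.0007) in the 6 cKO libraries alone, of Bgn (-0.082), Casq2 (0.050), Idh3a (0.083) and Tnni2 (0.082) with library 63 as P21 cKO, and of Atpif1 (0.0078) with array weights. Differences that turned sign were those of P4ha3 (-0.97) with library 63 as P21 cKO and Bnip3 (-0.042) with array weights. None of the turned values had a call. With the main settings, Myh6, Myh7, Tnni2 and the P4ha3 difference had a call and the others had none. Leave-one-out ranges that crossed 0 were -0.042 to 0.029 (Atpif1), -0.042 to 0.050 (Bgn), -0.088 to 0.47 (Myl1), -0.26 to 1.53 (Myl4), -0.53 to 2.48 (Myl7) and -0.011 to 0.15 (Pdk1) within cKO and -0.017 to 0.18 for the Bnip3 difference. TPM give no depth, so the counting error of low genes is unknown.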

Other observations

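Library 63, a P21 heart with the genotype label PDK1 CKO and a title without the KO mark, belongs to no group here. Scaled with the same reference, it held P4ha3 at 0.0601 scaled TPM, Nppa at 229, Nppb at 134, Ogdhl at 50.6, Bex1 at 2.41, Bcl2 at 1.54, Cdkl1 at 3.0, Tnni2 at 11.3, Tnni1 at 1.37, Acaa2 at 583 and Slc25a20 at 101. Pdpk1 was 7.48 and Pdk1 32.4 in it. Its P4ha3, Nppa, Nppb, Ogdhl, Bex1, Bcl2, Tnni2 and Acaa2 values lay nearer to those of the P21 WT libraries than to those of the P21 cKO libraries. These genes are among those whose difference passed, and the genotype of library 63 was not tested.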
